A study of Mus musculus with 6 samples.

Results

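The caspases and their inhibitors measured here were 8 mouse genes: *Casp2*, *Casp6*, *Casp8*, *Casp9*, *Apaf1*, *Xiap*, *Birc5* and *Diablo*. They were taken as the rows of the expression table whose Ensembl identifier carries one of these symbols, and all 8 were found among its 55774 rows. All 8 were also among the 11924 genes tested, which reached 1 FPKM in 3 or more of the 6 libraries. *Casp2* and *Casp8* met this limit in all 3 oEV-EMT libraries and in 1 oEV-ctrl library, and the other 6 genes met it in every library. FPKM counts the sequenced fragments of a gene relative to its transcript length and to the size of the library, so that levels of different genes can be compared.

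The libraries were made from blastocysts of wild-type ICR mice that had grown in CZB medium with vesicles from human Fallopian tubes. The vesicles came from women with endometriosis (oEV-EMT) or from control donors (oEV-ctrl), whom the labels describe as having fibroids and the study's methods as having a lesion of the cervix. The embryos were taken from females primed with gonadotropins. The labels give them as 2-cell embryos at the start of culture and the methods as zygotes. Each group had 3 libraries and each library was a pool of 10 blastocysts, so that differences between single embryos are not seen, and no library was made from embryos grown without vesicles. The methods say that experiments were repeated at least 3 times. They do not say whether these pools came from separate cultures, or how the vesicles of the donors were divided among them. The p-values therefore measure the spread between these libraries only, which may be technical, and not the spread between women.

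Caspases are proteases that cut their substrates after aspartate residues and carry out apoptosis. Initiator caspases are switched on by being gathered on a platform: caspase-8 (*Casp8*) below death receptors, caspase-9 (*Casp9*) on the apoptosome that *Apaf1* builds after cytochrome c has left mitochondria, and caspase-2 (*Casp2*) on the PIDDosome, which is built from *Pidd1* and the adaptor *Cradd*. Executioner caspases, among them caspase-6 (*Casp6*), then cut lamins and other structural proteins. *Xiap* blocks active caspases, and *Diablo* (Smac) is released from mitochondria and pulls *Xiap* away from them. *Birc5* (survivin) belongs to the same family of inhibitors and has its best known role in cell division, as a subunit of the chromosomal passenger complex. Apoptotic cells are a normal feature of the mammalian blastocyst, most of them in the inner cell mass.

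Of the 8 genes, *Casp2* and *Birc5* were those whose oEV-EMT libraries all lay above all oEV-ctrl libraries. *Casp2*, an initiator caspase with low levels, had the largest difference of the 8 genes. *Birc5*, by far the most abundant of them, differed by less. The libraries of the other 6 genes overlapped between the groups, and none of the 8 genes had all oEV-EMT libraries below all oEV-ctrl libraries. At an adjusted p up to 0.05 and a log2 fold change of 1 or more in either direction, 0 of the 8 genes were called (limma with Benjamini-Hochberg adjustment over 11924 genes), as were 0 genes in all, or 0% of those tested. Without adjustment, 2 of the 8 genes had a p of at most 0.05 with a higher level in oEV-EMT and 0 with a lower level. Among all genes tested these shares were 12.8% higher and 2.55% lower. Libraries did not overlap in 18.1% of all genes with higher values in oEV-EMT and in 4.34% with lower values. The 2 of 8 genes are therefore to be read against a background in which higher values in oEV-EMT were common.

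The 8 genes spanned more than 2 orders of magnitude in level, and the order was nearly the same in both groups. *Birc5* stood first, with 522 ± 50.6 FPKM (SD, n = 3) in oEV-EMT and 377 ± 52.4 FPKM in oEV-ctrl, a level above 97.1% of the genes tested. *Diablo* and *Casp6* followed, and their libraries overlapped each other within both groups. In oEV-ctrl, *Xiap*, *Casp9*, *Apaf1*, *Casp8* and *Casp2* came next in this order, and from *Casp9* downward every gene overlapped its neighbour. In oEV-EMT, *Casp2* stood between *Casp6* and *Xiap*, and its libraries overlapped those of *Xiap*. *Casp8* then had the lowest mean, 1.32 ± 0.363 FPKM.

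**Figure D1:**
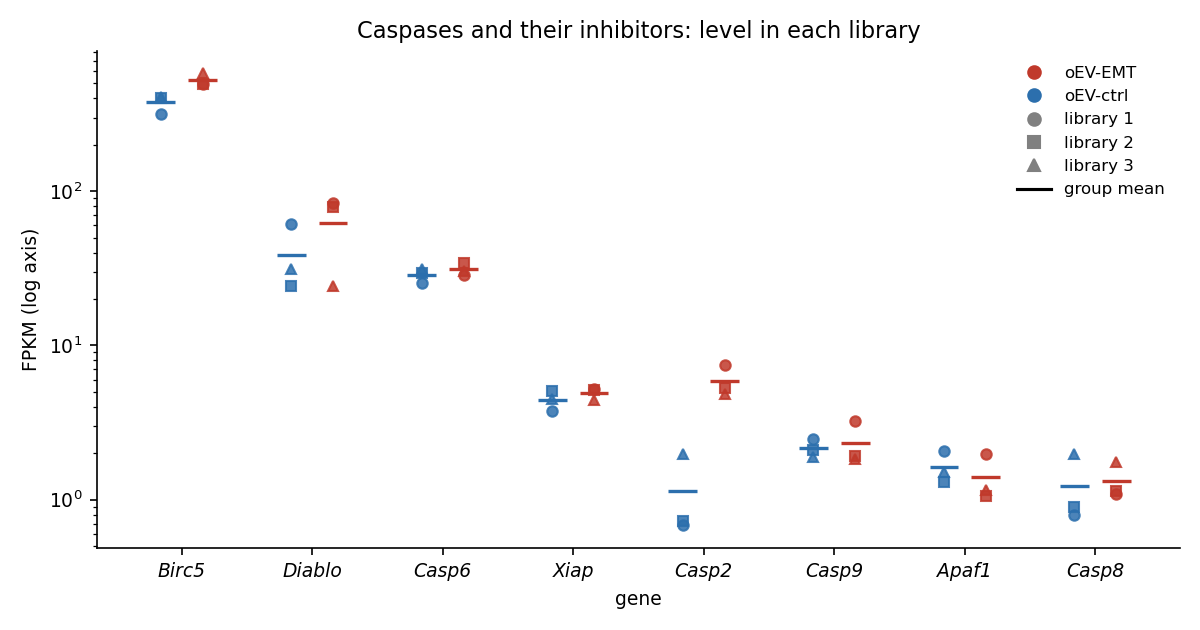
FPKM of the 8 genes on a log axis, with red for oEV-EMT, blue for oEV-ctrl, 1 symbol shape per library and a bar for the mean of 3 libraries. Symbols of both groups are mixed for 6 genes, whereas for *Casp2* the oEV-EMT libraries lie between 4.84 and 7.50 and the oEV-ctrl libraries between 0.683 and 1.99, and for *Birc5* between 491 and 580 and between 317 and 410.

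The promoter sequences of the 2 genes whose libraries did not overlap are shown here, because these genes carry the differences described below. Both are from RefSeq on GRCm38.p6, run 5′ to 3′ along the gene's own strand, and cover 300 bases around the start site, most of them before it. Capitals mark CCAAT boxes (CCAAT, or ATTGG where the box lies on the other strand) and GC boxes (GGGCGG, or CCGCCC on the other strand). The *Casp2* window is chr6:42264735-42265034 and the *Birc5* window is chr11:117848987-117849286, both on the plus strand.
Casp2: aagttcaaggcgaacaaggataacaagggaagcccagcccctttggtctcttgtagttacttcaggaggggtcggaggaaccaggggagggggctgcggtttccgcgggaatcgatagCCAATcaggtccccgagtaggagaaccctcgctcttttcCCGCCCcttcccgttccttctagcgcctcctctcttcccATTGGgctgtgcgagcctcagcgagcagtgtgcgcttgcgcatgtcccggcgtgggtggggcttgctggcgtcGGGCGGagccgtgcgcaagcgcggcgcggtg
Birc5: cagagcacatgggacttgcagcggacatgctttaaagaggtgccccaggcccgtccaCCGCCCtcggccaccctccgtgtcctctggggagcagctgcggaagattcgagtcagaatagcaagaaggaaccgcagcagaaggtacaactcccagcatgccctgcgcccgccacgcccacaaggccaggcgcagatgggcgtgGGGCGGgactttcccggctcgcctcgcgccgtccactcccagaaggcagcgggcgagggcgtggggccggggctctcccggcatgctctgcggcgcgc

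The *Casp2* window held a CCAAT box at position -132 from the start site and another on the opposite strand at -54, a GC box at 19 and another on the opposite strand at -93. The *Birc5* window held GC boxes at -48 and, on the opposite strand, at -193, and no CCAAT letters. Of 32851 windows of this length, 37.4% held CCAAT and 35.7% held GGGCGG on either strand. The cell cycle genes homology region, a short element known from promoters of genes of mitosis, was searched on both strands as TTTGAA, which 17.9% of all windows held, and as TTCGAA, which 1.56% held. Neither form was found in the windows of *Casp2* and *Birc5*. Among the other members, TTTGAA lay on the opposite strand in the window of *Casp8* at -132 and in a window of *Xiap* at -211. *Cdca8*, a partner of *Birc5*, had TTTGAA at 13, where it overlaps a CCAAT box, and *Bub1*, which helps to place the complex, had TTCGAA, which reads the same on both strands, at 14. These are matches of letters and were not tested for binding.

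*Casp2* lies on chromosome 6 (GRCm38, 42264985 to 42282508, plus strand) and reached 7.50, 5.28 and 4.84 FPKM in blastocysts treated with oEV-EMT. With oEV-ctrl it had 0.683, 0.722 and 1.99 FPKM. The lowest oEV-EMT library was thus well above the highest oEV-ctrl library, which was library 3. The mean was 5.87 ± 1.43 FPKM (SD, n = 3) in oEV-EMT and 1.13 ± 0.742 FPKM in oEV-ctrl, a ratio of 5.19. On the scale of log2(FPKM + 1), which understates changes of low values, the difference was 1.72 (SE 0.28, 95% interval 1.10 to 2.34). It was 1.55 above the median of all genes, which lay at 0.17. The unadjusted p of 9.40e-05 stood at rank 10 of 11924 genes and the difference at rank 24, while the adjusted p was 0.0951 (limma with Benjamini-Hochberg adjustment) and missed the threshold. These ranks hold only among genes that passed the filter, which *Casp2* passed through its high oEV-EMT libraries, and they are a description. At an adjusted p of at most 0.1, 13 genes (0.109% of those tested) had higher values in oEV-EMT, and *Casp2* was 1 of them. The smallest adjusted p of any gene was 0.0934.

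The call of *Casp2* depended on the setting. Without library oEV-ctrl 3 the difference was 1.99 and the adjusted p 0.0257, and with all libraries kept but weighted by their quality, an alternative chosen after seeing the data, *Casp2* was also called, with an adjusted p of 0.0333 (limma with Benjamini-Hochberg adjustment). Under all 16 alternative settings in which *Casp2* could be fitted, the difference stayed positive, between 1.52 and 2.41. The adjusted p ran from 0.0257 to 0.609. The value of 0.609 came without the filter, where 31842 genes were tested and the unadjusted p of *Casp2* was 0.000971 (limma). No gene had a smaller adjusted p in that setting. Without oEV-ctrl 1 the adjusted p of *Casp2* was 0.331, and without oEV-ctrl 2 it was 0.306 (limma). The libraries did not overlap in any of the 16 settings, though only a change of scaling could have made them overlap. The other settings keep the order of the libraries or leave 1 of them out. Since 2 of its oEV-ctrl libraries were under 1 FPKM, *Casp2* entered the test through the oEV-EMT libraries. A gene so low in oEV-ctrl could enter only if oEV-EMT libraries reached 1 FPKM, which favoured genes with higher values in oEV-EMT. No stretch of 50 bases of its 10 annotated transcripts occurs in another gene, so sharing of fragments with a copy was not seen in the annotation. Depth was derived from the steps of the lowest values, and if the commonest step is 1 fragment, the *Casp2* values of libraries oEV-ctrl 1 and oEV-ctrl 2 stand for 5 to 43 and 7 to 62 fragments, depending on which transcript is present (384 to 3529 bases). In oEV-ctrl 3 the range was 25 to 227 fragments, and the lowest such range in oEV-EMT was 44 to 400 fragments. These ranges overlap, though for the same transcript the number in oEV-ctrl 3 is lower.

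The other initiator caspases did not show this. *Casp8* (chromosome 1, 58795374 to 58847503, plus strand), which acts below death receptors, had 1.10, 1.13 and 1.74 FPKM in oEV-EMT and 0.799, 0.895 and 1.98 FPKM in oEV-ctrl. The third library was the highest in both groups, and the groups overlapped. The difference of *Casp8* was 0.09 on the log2(FPKM + 1) scale (SE 0.25, 95% interval -0.46 to 0.64, adjusted p = 0.882, limma). *Casp9* (chromosome 4, 141793612 to 141815976, plus strand), the caspase of the apoptosome, had 3.25, 1.92 and 1.83 FPKM in oEV-EMT and 2.48, 2.09 and 1.89 FPKM in oEV-ctrl. Library oEV-EMT 1 stood above the rest, and the other 2 oEV-EMT libraries lay within or just under the range of oEV-ctrl. Its difference was 0.06 (SE 0.23, 95% interval -0.46 to 0.57, adjusted p = 0.925, limma). Of the exons of *Casp9*, 94 bases also lie in exons of *Cela2a* on the opposite strand, a gene with 19.4 to 56.9 FPKM.

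The make-up of the initiator caspase transcripts differed between the groups along with *Casp2*. *Casp2* held 63.3%, 63.4% and 57.5% of the summed FPKM of *Casp2*, *Casp8* and *Casp9* with oEV-EMT, against 17.2%, 19.5% and 33.9% with oEV-ctrl. Shares within a library do not depend on the scaling between libraries, and these did not overlap. They rest on the same *Casp2* values as above and are no separate evidence. The sum of the 4 caspases was mostly *Casp6*, at 70.7% to 80.4% in oEV-EMT and 84.1% to 88.8% in oEV-ctrl.

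*Casp6*, the executioner caspase among the 8 genes, was expressed at a steady level. It had 28.5, 34.3 and 30.4 FPKM in oEV-EMT and 25.5, 29.3 and 31.1 FPKM in oEV-ctrl. The groups overlapped, and the highest library was 1.34 times the lowest. The difference was 0.11 on the log2(FPKM + 1) scale (SE 0.20, 95% interval -0.33 to 0.56, adjusted p = 0.811, limma). The gene lies on chromosome 3 (129901425 to 129914103, plus strand).

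*Apaf1* (chromosome 10, 90989311 to 91082770, minus strand), the scaffold of the apoptosome, was the only one of the 8 genes with a lower mean in oEV-EMT than in oEV-ctrl in the values as deposited; after median-of-ratios or upper quartile scaling, the differences of *Casp6*, *Casp8*, *Casp9* and *Xiap* were negative as well. It had 1.97, 1.06 and 1.16 FPKM in oEV-EMT and 2.08, 1.31 and 1.51 FPKM in oEV-ctrl. Library 1 was the highest in each group, and the groups overlapped. The difference was -0.15 (SE 0.23, 95% interval -0.65 to 0.36, adjusted p = 0.786, limma), which is -0.32 relative to the median of all genes. Its sign was negative under all 16 alternatives. The ratio of *Apaf1* to *Casp9* within a library was 0.606, 0.554 and 0.631 in oEV-EMT and 0.840, 0.625 and 0.797 in oEV-ctrl. These ratios overlapped by a small margin, through oEV-EMT 3 and oEV-ctrl 2, and their mean log2 values differed by -0.33 with an SD of 0.10 in oEV-EMT and 0.23 in oEV-ctrl.

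*Xiap*, the direct inhibitor of caspases, had 5.19, 5.11 and 4.40 FPKM in oEV-EMT and 3.75, 5.07 and 4.50 FPKM in oEV-ctrl. The groups overlapped, with oEV-ctrl 1 the lowest library. The difference was 0.12 on the log2(FPKM + 1) scale (SE 0.21, 95% interval -0.35 to 0.60, adjusted p = 0.810, limma). *Xiap* lies on the X chromosome (42059679 to 42109656, plus strand), and the mix of female and male embryos in each pool is not stated.

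*Birc5* lies on chromosome 11 (117849251 to 117855743, plus strand) and had 491, 494 and 580 FPKM in oEV-EMT and 317, 404 and 410 FPKM in oEV-ctrl. All oEV-EMT libraries were above all oEV-ctrl libraries, in which library 1 was the lowest. The difference was 0.47 on the log2(FPKM + 1) scale (SE 0.19, 95% interval 0.05 to 0.89), or 0.30 above the median of all genes. The unadjusted p was 0.0307 and the adjusted p 0.275 (limma with Benjamini-Hochberg adjustment). The libraries overlapped after median-of-ratios scaling and after upper quartile scaling, where the difference was 0.28 and 0.21. Without oEV-EMT 3 the unadjusted p was 0.0862, and without oEV-ctrl 1 it was 0.106 (limma). *Birc5* shares stretches of 50 bases with 184 other genes, but these make up 2.09% of its stretches.

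*Diablo* (chromosome 5, 123509765 to 123524176, minus strand), the antagonist of the inhibitors, varied more between libraries than between groups. It had 83.7, 79.0 and 24.3 FPKM in oEV-EMT and 61.0, 24.1 and 31.1 FPKM in oEV-ctrl. Both groups thus held libraries with high values, between 61.0 and 83.7 FPKM, and libraries with low values, between 24.1 and 31.1 FPKM. The difference was 0.59 on the log2(FPKM + 1) scale with a large error (SE 0.54, 95% interval -0.70 to 1.88, adjusted p = 0.642, limma). It depended on single libraries and was 1.16 without oEV-EMT 3, 0.97 without oEV-ctrl 1, 0.33 without oEV-EMT 2, 0.32 without oEV-ctrl 2 and 0.29 without oEV-EMT 1. Of its stretches of 50 bases, 37.3% also occur in 4 other annotated genes that overlap or resemble it, chiefly *B3gnt4* on the opposite strand and the overlapping gene model *Gm49027* on the same strand. The level of these genes did not exceed 0.385 FPKM in any library, and whether the authors' counting used the strand is not stated.

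**Figure D2:**
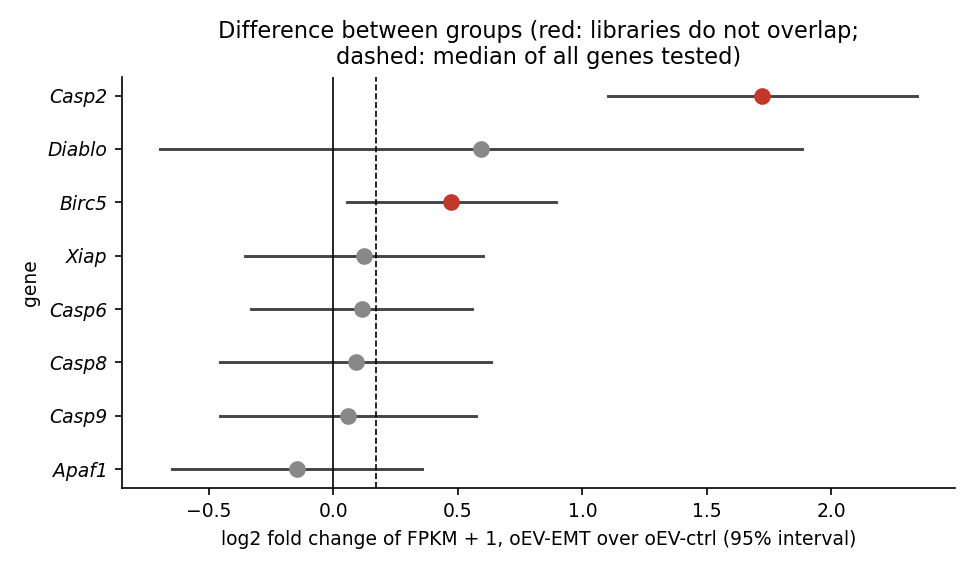
Difference of log2(FPKM + 1) between oEV-EMT and oEV-ctrl for each gene, with its 95% interval as a line; the dashed line is the median of all genes tested, 0.17. Red points are the genes whose libraries did not overlap, *Casp2* at 1.72 and *Birc5* at 0.47, and *Diablo* has the widest interval, from -0.70 to 1.88.

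Taken as a list, the 8 genes had a median difference of 0.12, against 0.17 over all genes tested, and 3 of them lay above that median and 5 below. The list as a whole thus stood close to the other genes, and *Casp2* stood apart within it.

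Ratios between pairs of the 8 genes were compared within libraries, where scaling between libraries has no effect. *Diablo* over *Xiap* was 16.1, 15.4 and 5.52 in oEV-EMT and 16.3, 4.76 and 6.91 in oEV-ctrl. *Casp9* over *Xiap* was 0.626, 0.375 and 0.416 in oEV-EMT and 0.662, 0.413 and 0.421 in oEV-ctrl. In both pairs the first library of each group was the highest and the groups overlapped. The mean log2 ratios differed by 0.45 and -0.08, each less than the SD within a group. *Diablo* over *Birc5* and *Casp8* over *Casp9* also overlapped, with differences of 0.13 each.

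**Figure D3:**
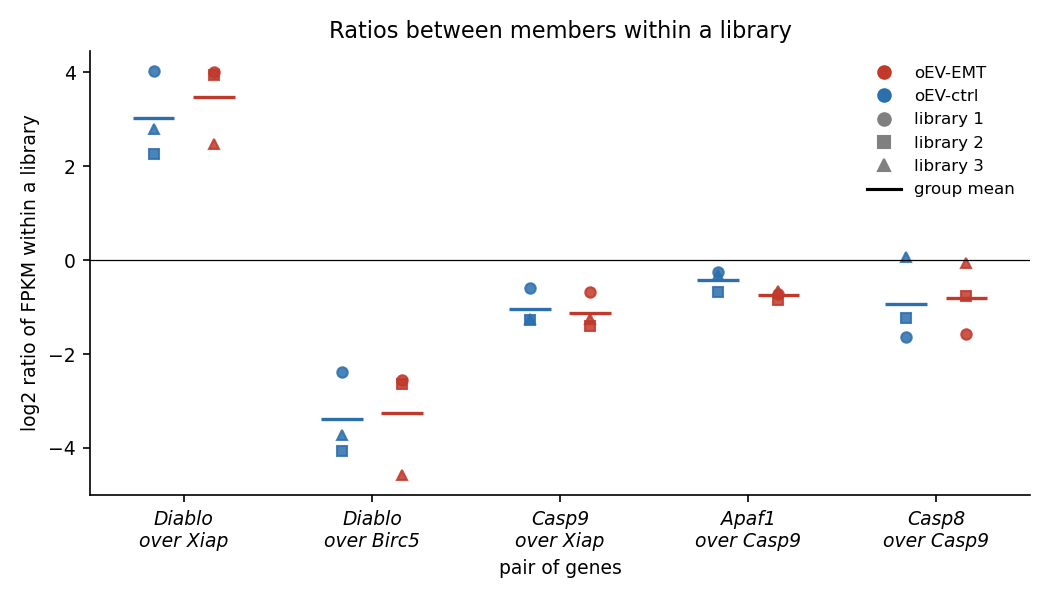
Log2 ratio of the FPKM of 2 genes within each library for 5 pairs, with 1 symbol shape per library and a bar for the group mean. The groups overlap in all 5 pairs; for *Apaf1* over *Casp9* the oEV-EMT libraries sit in the lower part of the range, with ratios of 0.554 to 0.631 against 0.625 to 0.840.

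Genes that work with the 8 genes were examined as lists chosen by function. *Casp1* and *Casp4*, the caspases of inflammation, were at 0 in all 6 libraries. *Casp12* and *Casp14* were at or under 0.110 FPKM.

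The partners of *Casp2* in the PIDDosome were low. *Cradd*, the adaptor that binds caspase-2, had 5.32, 4.13 and 5.21 FPKM in oEV-EMT and 2.52, 2.04 and 3.09 FPKM in oEV-ctrl. Its libraries did not overlap, also after median-of-ratios and upper quartile scaling, and the difference was 0.73 (SE 0.22, unadjusted p = 0.00786, adjusted p = 0.190, limma). *Pidd1*, the scaffold, did not pass the filter and had 0.959, 0.527 and 0.434 FPKM in oEV-EMT and 0.278, 0.189 and 0.667 FPKM in oEV-ctrl, which overlap. *Ripk1*, a kinase below death receptors, was also untested, at 0.433 to 0.961 FPKM over both groups. Of the 8 adaptors and regulators of initiator caspases, 6 were tested, 1 had an unadjusted p of at most 0.05 with a higher level and 0 with a lower level, and the median was 0.26. For all genes tested, these shares were 12.8% higher and 2.55% lower, and the median was 0.17. *Cflar*, the inhibitor of caspase-8 activation, had all 3 oEV-EMT libraries below oEV-ctrl by a small margin (difference -0.17, adjusted p = 0.727, limma), which was lost when each library was scaled to the same total. *Apip*, which binds *Apaf1*, had them above (0.41, adjusted p = 0.344), though not after median-of-ratios or upper quartile scaling, and *Aven*, another regulator of *Apaf1*, overlapped (-0.21, adjusted p = 0.664). After either of these scalings, the oEV-EMT libraries of *Aven* all lay below those of oEV-ctrl.

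Cytochrome c, which switches on the apoptosome, differed in the other direction. *Cycs* had 204, 268 and 315 FPKM in oEV-EMT and 411, 383 and 328 FPKM in oEV-ctrl. The groups did not overlap, and the difference was -0.52 (SE 0.21, unadjusted p = 0.0320, adjusted p = 0.279, limma). Among the 6 released mitochondrial factors and antagonists of the inhibitors, 5 were tested, 0 had an unadjusted p of at most 0.05 with a higher level and 1, *Cycs*, with a lower level, and the median was 0.12. Over all genes tested, 12.8% had such a p with a higher level and 2.55% with a lower level. Lower values without overlap were found in 4.34% of them, and their median was 0.17. *Htra2*, a protease that like *Diablo* binds the inhibitors, differed by -0.16, *Xaf1*, an antagonist of *Xiap*, by 0.44, and the nuclease *Endog* by 0.36, and the libraries of all 3 overlapped. *Aifm1*, named after its values were seen, had all oEV-EMT libraries above oEV-ctrl by a small margin (0.12, adjusted p = 0.799), which was lost after median-of-ratios scaling. *Sept4*, the gene of another *Xiap* antagonist, was untested, at 0.153 to 0.596 FPKM.

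Some partners of *Birc5* in the chromosomal passenger complex also had higher values in oEV-EMT, as was common among all genes. *Aurkb*, the kinase of the complex, had 37.0, 31.3 and 30.4 FPKM in oEV-EMT and 25.4, 21.8 and 23.3 FPKM in oEV-ctrl. *Cdca8* (borealin) had 150.4, 187 and 151 FPKM in oEV-EMT and 122, 101 and 128 FPKM in oEV-ctrl. For both, the groups did not overlap, with a difference of 0.47 each, close to that of *Birc5*, and adjusted p values of 0.301 and 0.293 (limma). *Bub1*, the kinase that marks the centromere for the complex, differed by 0.39 without overlap (adjusted p = 0.372). The scaffold subunit *Incenp* did not follow, with 4.29, 2.23 and 1.07 FPKM in oEV-EMT and 5.16, 1.27 and 2.03 FPKM in oEV-ctrl. Of the 6 genes of this list, all were tested, 2 had an unadjusted p of at most 0.05 with a higher level and 0 with a lower level, and the median was 0.35. Over all genes tested, 12.8% had such a p with a higher level, and 18.1% had higher values without overlap, against 3 of the 6 genes here. After median-of-ratios scaling the libraries of *Cdca8* and *Bub1* overlapped, and after upper quartile scaling those of *Aurkb* did too.

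**Figure D4:**
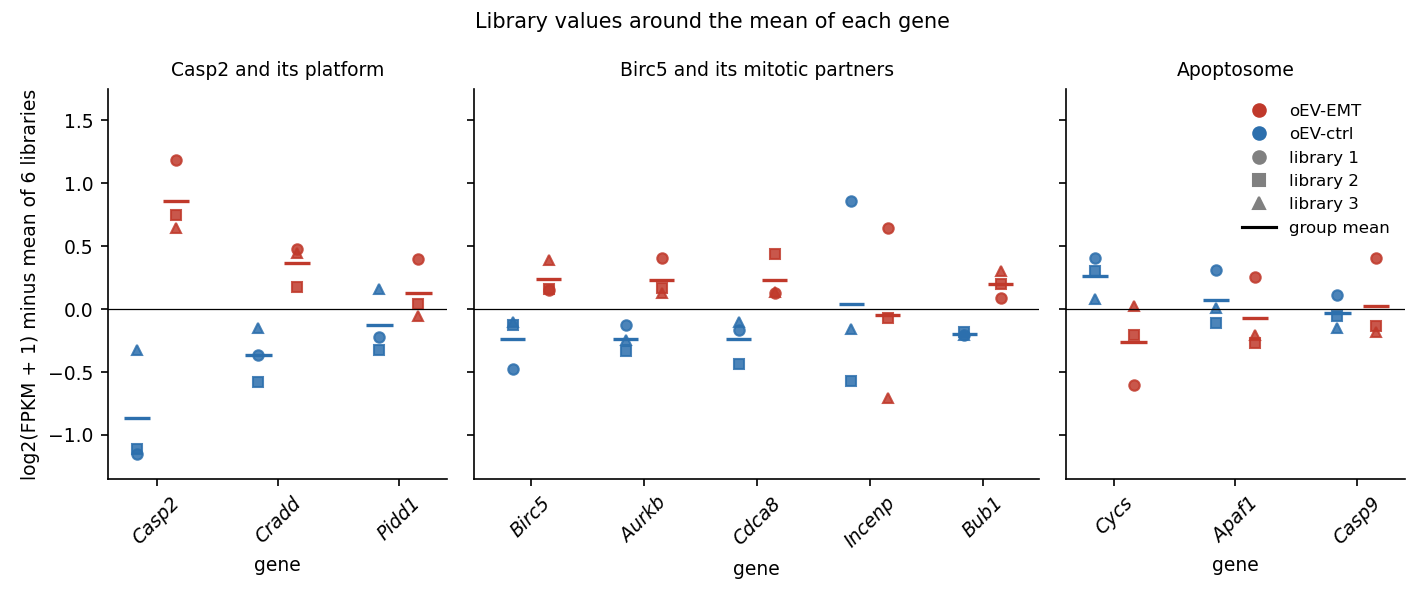
Value of each library of log2(FPKM + 1) minus the mean of the 6 libraries, for *Casp2* and the PIDDosome genes, *Birc5* and its partners in mitosis, and the apoptosome genes, with a bar for the mean of each group. The oEV-EMT libraries lie above the oEV-ctrl libraries in *Casp2*, *Cradd*, *Birc5*, *Aurkb*, *Cdca8* and *Bub1*, below them in *Cycs*, and among them in *Pidd1*, *Incenp*, *Apaf1* and *Casp9*.

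The other inhibitors of the family and the substrates of caspases were examined in the same way. Of 8 further inhibitor of apoptosis genes, *Birc2*, *Birc3* and *Birc6* were tested, with differences of 0.31, 0.06 and 0.02, and all 3 overlapped. *Birc7*, *Naip1*, *Naip2*, *Naip5* and *Naip6* were untested and did not exceed 0.197 FPKM in any library. All 13 substrates were tested, 1 had an unadjusted p of at most 0.05 with a higher level and 0 with a lower level, and their median was 0.14, beside the 12.8% and 2.55% of all genes. The 1 gene was *Bid*, which links caspase-8 to mitochondria, with 6.55, 6.35 and 6.09 FPKM in oEV-EMT and 3.17, 3.30 and 4.69 FPKM in oEV-ctrl (difference 0.65, SE 0.22, unadjusted p = 0.0143, adjusted p = 0.222, limma). The libraries of *Bid* did not overlap. *Rock1* (-0.37), *Parp1* (-0.32) and *Acin1* (-0.23) had lower means in oEV-EMT with overlapping libraries. After median-of-ratios or upper quartile scaling, the libraries of *Rock1* and *Parp1* no longer overlapped, while those of *Acin1* still did.

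The genes whose profile over the 6 libraries was nearest to that of each member were found by the root mean square distance of centred log2(FPKM + 1) values. For *Casp2* these were the unannotated entry new_gene81 (distance 0.0961) and *Map1lc3a* (0.157), an autophagy protein, where the median distance over all genes was 0.860. *Map1lc3a* had 48.1, 36.3 and 39.8 FPKM in oEV-EMT and 11.2, 8.75 and 15.2 FPKM in oEV-ctrl. Its profile resembled that of *Casp2*, with oEV-EMT 1 the highest of all and oEV-ctrl 3 the highest of its group. For *Birc5* the nearest genes were *Ints12* (0.0433) and *Golga7* (0.0465). *Diablo* was nearest to *Sptbn1* (0.207) and *Xpo6* (0.221), which were also low in oEV-EMT 3, oEV-ctrl 2 and oEV-ctrl 3. For *Casp6* the nearest were *Pdzd11* and *Cul1*, for *Xiap* they were *Qrsl1* and *Gm3650*, for *Casp9* *Usp12* and *Sertad2*, for *Apaf1* *Cenpj* and *Phf13*, and for *Casp8* *Gspt2* and new_gene116, all within 0.0694. These distances cover 6 libraries that share depth and scaling, and are a description.

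The make-up of the libraries also differed between the groups. The FPKM summed to between 1293175 and 1551567 per library, of which the unannotated entry new_gene48 held 15.3% to 19.0% in oEV-EMT and 19.7% to 31.5% in oEV-ctrl, with oEV-ctrl 1 the highest, and mitochondrially encoded genes 3.93% to 4.84% in oEV-EMT and 5.96% to 7.45% in oEV-ctrl. The derived depth differed up to 2.07 times, and neither group was deeper in all its libraries. Of the cell type markers, all 7 of trophectoderm were tested, and their summed level was 3123 to 4734 FPKM in oEV-EMT and 3075 to 4826 FPKM in oEV-ctrl. This sum was mostly *Krt18* and *Krt8*, with means of 2556 and 1179 FPKM in oEV-EMT, and it hides the other markers. The libraries of all 7 overlapped, but single markers went both ways. *Elf5* differed by 0.67, *Gata3* by -0.26 and *Eomes* by -0.39, and the median of the 7 was -0.02. The 3 epiblast markers summed to 71.2 to 80.2 FPKM in oEV-EMT and 26.6 to 53.4 FPKM in oEV-ctrl, with *Nanog* and *Pou5f1* not overlapping and *Sox2* overlapping, and 4 primitive endoderm markers, of which *Gata4* did not overlap, to 26.7 to 40.9 and 28.0 to 33.9 FPKM. Among the primitive endoderm markers, *Gata4* differed by 0.82, *Sox17* by 0.95, *Pdgfra* by 0.08 and *Gata6* by -0.19. In such pools, more cells of a type and more RNA per cell cannot be told apart. *Nanog* and *Pou5f1* thus had higher values in oEV-EMT, as *Casp2* and *Birc5* did, whereas the mean of *Sox2* was lower, 1.87 FPKM against 2.43 FPKM, and their part in these differences was not tested. Of 6 markers of cumulus, oviduct and blood cells none was tested, 4 were at 0 in all libraries, and their sum did not exceed 0.461 FPKM.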

How the data were processed

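RNA from 6 pools of 10 blastocysts was sequenced after selection of polyadenylated RNA. The authors aligned the reads, assembled transcripts with StringTie and deposited 1 value per gene and library; the submitters' processing notes give the build mm10, and the aligner is not given in the sources used here. The values that the authors deposited are called TPM in the methods, but each library sums to more than 1000000, and they were treated as FPKM, normalized by the authors to transcript length and library size. No read counts were used, and count models were not applied. Genes that reached 1 FPKM in 3 or more libraries were fitted as log2(FPKM + 1) by limma (version 3.58.1, R 4.3.3), using its trend and robust options and no scaling between libraries. p-values were two-sided and adjusted by Benjamini-Hochberg over all 11924 genes. A call needed an adjusted p up to 0.05 and a log2 fold change of 1 or more in either direction. The procedure was tested on simulated data. Samples were grouped by their titles.

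The members and the lists of partner genes were chosen with earlier results of these data known, and no p was adjusted over a list alone. All 8 members were named, and from each partner list those untested or at 0 and up to 4 tested genes with the largest difference relative to the median of all genes. Some genes of these lists are not reported here. Locations and shared 50-base stretches came from GENCODE M21 and promoters from RefSeq. Depth was derived from the commonest step between low FPKM values of genes with 1 transcript; read totals are unknown, and no counting interval was computed. Alternatives covered scaling, filter, pseudocount, variance model, a replicate block, library weights and the removal of single libraries. Python 3.11.15 with matplotlib 3.10.9 drew the figures.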

Additional observations from a re-analysis of the deposited data

How the results depend on the processing

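Over all genes, 0 were called under each scaling, filter, pseudocount and variance model tried, 21 with the replicate number as a block, 104 with libraries weighted by quality, an alternative chosen after seeing the data, and 0 to 16 when 1 library was left out (16 without oEV-ctrl 3). *Casp2* was the 1 member called with the weights (1.52, adjusted p = 0.0333, limma), and 0 to 1 members were called when 1 library was left out, with *Casp2* between 1.56 and 1.99. With the replicate block *Casp2* was also the 1 member called (1.72, adjusted p = 0.0496, limma). Deviations of same-numbered libraries from their group means correlated at 0.12, -0.04 and 0.04, and not every library was closest to its own number. With so few libraries per group, these values cannot decide whether the numbers pair the samples. The number of members whose libraries did not overlap was 1 after median-of-ratios scaling, upper quartile scaling and the filter of 5 FPKM, and 2 to 4 when 1 library was left out. The share of all genes without overlap is not given for these settings, so these counts cannot be read as a result about the members. A group that has lost a library also separates more easily. Leaving out a library cannot make separated groups overlap. Median-of-ratios scaling, which moved the median of all genes from 0.17 to 0.01, turned *Casp6* to -0.078, *Casp8* to -0.0070, *Casp9* to -0.083 and *Xiap* to -0.041. Upper quartile scaling (median -0.04) turned them to -0.14, -0.045, -0.13 and -0.097. Library weights turned *Casp8* to -0.053 and *Casp9* to -0.025. Leaving out 1 library gave -0.045 to 0.32 for *Casp8* and -0.13 to 0.16 for *Casp9*. Of all genes with an unadjusted p of at most 0.05, 1527 were higher and 304 lower as deposited, while median-of-ratios scaling gave 767 and 763 and upper quartile scaling 550 and 963. The cause of these changes was not tested. The filter of 5 FPKM left out *Casp2*, *Casp8*, *Casp9* and *Apaf1*. The 1 FPKM limit and 3 libraries per group limit what can be said of *Casp8*, *Apaf1* and *Casp9*.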
